A study of Homo sapiens with 6 samples.

Results

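The 55 genes described here form a set for the G2 phase of the cell cycle and mitosis, though CDC25A acts from late G1 onwards. They were taken by symbol from a table of 25268 gene symbols measured in A673 cells, an established Ewing sarcoma line. A673 cells carry a fusion of EWSR1 and FLI1, whose product EWS-FLI1 is a transcription factor that binds DNA through its FLI1 part. The cells were given esiRNA, a pool of short interfering RNAs cut enzymatically from long double-stranded RNA, against FLI1 (esiFLI1), against the deubiquitinase USP9X (esiUSP9X) or against GFP as the non-targeting control (esiGFP). RNA was taken 72 h after transfection, with 2 libraries per group. The labels do not say whether the libraries of a group came from separate cultures, so the p-values speak only for the spread among these libraries, which may be technical. All groups share the cell line and its fusion gene, and the esiRNA against FLI1 also reaches the fusion transcript through its FLI1 part.

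Entry into mitosis is driven by cyclin B bound to the kinase CDK1, which CDC25 phosphatases switch on by removing inhibitory phosphates. Polo-like and Aurora kinases, kinesins and the kinetochore then build the spindle and attach chromosomes to it. The spindle checkpoint holds back the anaphase-promoting complex (APC/C) until attachment is complete. The APC/C with CDC20 afterwards marks securin and cyclin B for destruction, which frees separase to cut cohesin and lets the cell leave mitosis. Transcripts of most of these genes peak in G2 and M through the MuvB complexes, B-MYB, FOXM1 and NF-Y, which act at CHR and CCAAT elements close to the start of transcription. In bulk RNA, fewer cells in G2 or mitosis cannot be told apart from less of these RNAs in each such cell.

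Promoter sequences are shown for 6 genes because they span the patterns below: CDC25A, MYBL2 and PLK1 had lower RNA in esiFLI1 libraries with the replicate block, KIF20A and TOP2A had higher RNA, and CCNB2 lay near the control level. They are RefSeq windows on GRCh38.p14, printed 5′ to 3′ for the 250 bases before the start of transcription, with capitals on matches on either strand to the CHR core TTTGAA, the CCAAT box or the E2F spellings TTTCCCGC and TTTGGCGC.
CDC25A, chr3:48188418-48188667, minus strand: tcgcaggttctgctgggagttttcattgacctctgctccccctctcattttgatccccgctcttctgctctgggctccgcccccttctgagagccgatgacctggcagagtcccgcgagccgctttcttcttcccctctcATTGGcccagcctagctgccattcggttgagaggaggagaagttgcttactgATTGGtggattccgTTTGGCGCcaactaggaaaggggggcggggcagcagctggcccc
MYBL2, chr20:43666864-43667113, plus strand: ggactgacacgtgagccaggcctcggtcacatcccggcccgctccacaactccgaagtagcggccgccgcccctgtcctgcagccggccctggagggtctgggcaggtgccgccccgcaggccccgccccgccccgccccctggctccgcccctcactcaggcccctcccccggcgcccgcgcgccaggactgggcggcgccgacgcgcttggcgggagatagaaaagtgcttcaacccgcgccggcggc
PLK1, chr16:23678639-23678888, plus strand: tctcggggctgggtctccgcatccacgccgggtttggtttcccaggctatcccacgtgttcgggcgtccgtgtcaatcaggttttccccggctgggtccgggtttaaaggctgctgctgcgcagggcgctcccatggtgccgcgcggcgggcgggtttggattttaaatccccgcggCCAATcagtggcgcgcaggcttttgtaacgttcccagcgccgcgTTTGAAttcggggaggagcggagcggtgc
KIF20A, chr5:138178862-138179111, plus strand: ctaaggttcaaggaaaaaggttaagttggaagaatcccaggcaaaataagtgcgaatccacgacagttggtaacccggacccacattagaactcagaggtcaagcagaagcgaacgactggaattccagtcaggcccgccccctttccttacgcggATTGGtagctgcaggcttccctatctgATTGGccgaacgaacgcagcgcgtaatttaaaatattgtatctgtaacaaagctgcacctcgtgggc
TOP2A, chr17:40417897-40418146, minus strand: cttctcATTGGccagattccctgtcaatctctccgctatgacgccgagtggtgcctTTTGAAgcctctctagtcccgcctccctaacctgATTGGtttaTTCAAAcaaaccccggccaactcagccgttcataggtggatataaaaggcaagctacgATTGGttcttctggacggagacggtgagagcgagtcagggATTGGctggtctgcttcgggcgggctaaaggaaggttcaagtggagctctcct
CCNB2, chr15:59104896-59105145, plus strand: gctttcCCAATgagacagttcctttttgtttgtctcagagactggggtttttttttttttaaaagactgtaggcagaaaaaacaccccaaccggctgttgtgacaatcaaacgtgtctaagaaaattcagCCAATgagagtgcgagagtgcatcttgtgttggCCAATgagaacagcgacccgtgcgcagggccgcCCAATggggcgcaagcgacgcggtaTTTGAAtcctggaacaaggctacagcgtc
PLK1 and CCNB2 both held a CHR core whose first base lay at position -29 from the start, and each had a CCAAT box farther upstream, the nearest at -73 in PLK1 and at -54 in CCNB2. CDC25A had an E2F spelling at -44 and no CHR core, KIF20A had CCAAT boxes at -94 and -67 without a CHR core, and none of the searched letters occurred in the MYBL2 window. Over the full windows of 300 bases, which reach 50 bases past the start, a window was found for 46 of the 55 genes. Only the first window listed for a gene was used, so its other starts of transcription were not searched. The CHR core was present in 31 of the 46 (67.4%), against 15.4% of 27305 promoters in the same table. A CCAAT box was present in 33 (71.7%), against 35.7% of all promoters, and both elements together in 24 (52.2%), against 6.08%. The other CHR spelling, TTCGAA, was present in 3 (6.52%), against 1.45%. The E2F spellings were each present in 2 (4.35%), against 1.66% for TTTCCCGC and 0.659% for TTTGGCGC. By the blocked calls between esiFLI1 and esiGFP given below, the CHR core was in 4 of 10 windows of lower genes, 2 of 3 of higher genes and 25 of 33 of uncalled genes. Such matches describe letters only and do not show binding, and spellings of these elements other than those given were not searched.

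The values are FPKM, fragments counted per kilobase of a gene's transcript and divided by the library's mapped total, so levels of different genes are compared per length. A library's FPKM summed to between 781732 and 907926, between 11310 and 12071 genes reached 1 FPKM, and the symbol MIR6723 alone held between 33.2% and 50.9% of the sum, the larger share being that of replicate 2 in each group. The read depth is unknown, so no counting intervals are given. FLI1 RNA was 12.7 and 14.1 FPKM in esiFLI1 libraries, 25.0 and 31.9 FPKM in esiUSP9X libraries and 24.1 and 36.4 FPKM in esiGFP libraries. USP9X RNA was 26.2 and 37.7 FPKM in esiFLI1 libraries, 5.31 and 7.10 FPKM in esiUSP9X libraries and 20.6 and 26.5 FPKM in esiGFP libraries. Each targeted RNA was thus lowest in the libraries of its own esiRNA, with no overlap with the other groups. Of 8 Ewing sarcoma markers, 7 were measured at 1 FPKM or more in every library, whereas CD99, a surface marker of this tumour, was listed at 0 in all 6. Whether CD99 RNA was absent or was not counted was not tested. The 8 summed to 409 and 376 FPKM in esiFLI1 libraries, 823 and 766 FPKM in esiUSP9X libraries and 822 and 822 FPKM in esiGFP libraries. All 7 were lower in esiFLI1 than in esiGFP with the replicate block and 3 without it, with a median log2 change of -1.28. FLI1, the target itself, is among the 7 and in the sums, so its fall is not a separate marker response. EWSR1, the other gene of the fusion transcript that this esiRNA reaches, is among them too, so its fall need not be separate either. Of 17 epithelial, endothelial and leukocyte markers, 4 passed the filter on low values described next (KRT8, KRT18, KDR and CD68), and CDH1 and CD3E were listed at 0 in every library. Some of these markers moved with FLI1 knockdown, by the limma tests described below. The 5 endothelial markers summed to 1.497 and 1.573 FPKM in esiFLI1 libraries, 0.231 and 0.198 FPKM in esiUSP9X libraries and 0.214 and 0.143 FPKM in esiGFP libraries. KDR was higher in esiFLI1 than in esiGFP by 1.08 on the log2 scale (limma adjusted p = 0.0189 without the replicate block). It reached 1 FPKM only in the esiFLI1 libraries, so it passed the filter only through the group where it was high. Its p-value is therefore not used as support. The 5 leukocyte markers summed to 7.70 and 4.57 FPKM in esiFLI1 libraries, 2.03 and 1.88 FPKM in esiUSP9X libraries and 3.82 and 2.73 FPKM in esiGFP libraries, and CD68 was higher in esiFLI1 than in esiGFP by 0.70 (limma adjusted p = 0.00781 with the block and 0.317 without it). The 7 epithelial markers summed to 246 and 142 FPKM in esiFLI1 libraries, 230 and 162 FPKM in esiUSP9X libraries and 200 and 148 FPKM in esiGFP libraries, mostly KRT18, which was not called. KRT8 was higher by 1.36 in esiFLI1 (limma adjusted p = 6.0e-05 with the block and 0.223 without it) and by 0.86 in esiUSP9X (0.0210 with the block and 1 without it). The part of these markers in the results below was not tested.

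All 55 genes were in the table, none was at 0 in any library, and all passed the filter of 1 FPKM in at least 2 of the 6 libraries, which kept 12169 genes. They were abundant RNAs in every group. Their median level was 62.0 and 72.8 FPKM in esiFLI1 libraries, 68.4 and 77.3 FPKM in esiUSP9X libraries and 61.7 and 76.0 FPKM in esiGFP libraries. The median of all kept genes lay between 10.9 and 12.3 FPKM. In esiUSP9X and esiGFP libraries all 55 genes were above that median, and in esiFLI1 libraries 54 and 53 of them were. CDK1, the kinase that drives mitotic entry, reached 281 FPKM in an esiFLI1 library, the highest value of the set, and CDC25A was the lowest at 7.82 FPKM in the same library.

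**Figure D1:**
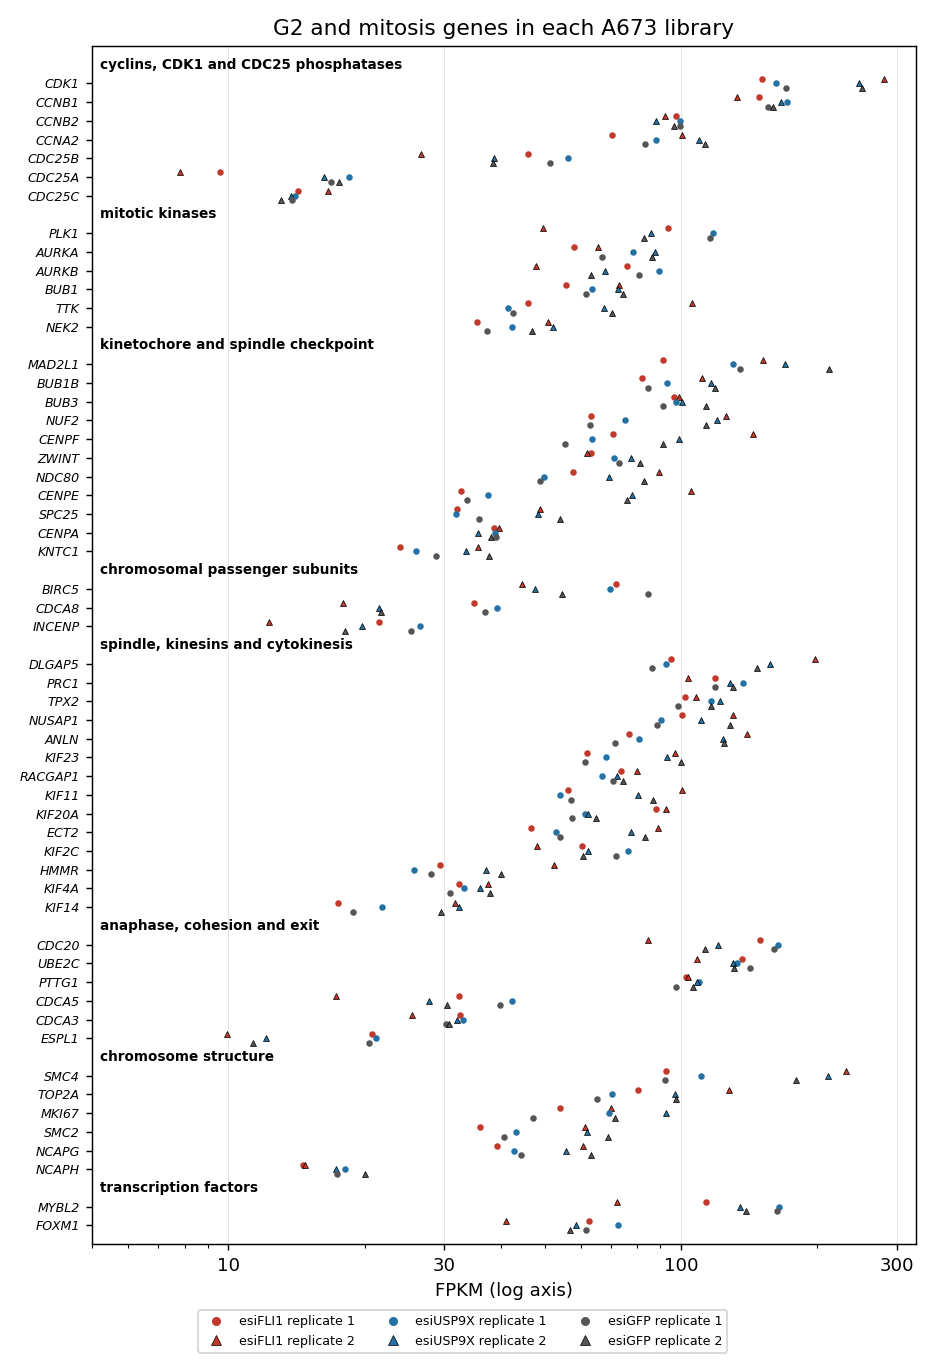
FPKM of each of the 55 G2 and mitosis genes (rows, grouped by role) on a log axis, with circles for replicate 1 and triangles for replicate 2 of esiFLI1, esiUSP9X and esiGFP. Triangles and circles of all 3 groups often separate by replicate number, while for CDC25A and KIF20A the esiFLI1 libraries stand apart from the rest.

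Levels differed between the replicate numbers in a like manner in all 3 groups. Deviations of same-numbered libraries from their group means correlated across the 55 genes at 0.959 between esiFLI1 and esiGFP, 0.975 between esiUSP9X and esiGFP and 0.979 between esiFLI1 and esiUSP9X, as a description. In replicate 2 the level was higher than in replicate 1 for 36 of the 55 genes in esiFLI1, for 33 in esiUSP9X and for 39 in esiGFP. The median log2 difference of FPKM + 1 between replicates 2 and 1 was 0.20 in esiFLI1, 0.12 in esiUSP9X and 0.29 in esiGFP, where all kept genes had -0.12, -0.09 and -0.06 in that order of groups. The difference exceeded 1.5-fold for 30 genes in esiFLI1, 11 in esiUSP9X and 18 in esiGFP. CENPE, the kinesin that moves chromosomes toward the spindle equator, was 32.6 and 105 FPKM in esiFLI1 libraries, 37.4 and 78.1 FPKM in esiUSP9X libraries and 33.6 and 76.0 FPKM in esiGFP libraries, high in replicate 2 of every group. ESPL1, the separase that cuts cohesin, ran the other way, with 20.8 and 9.91 FPKM in esiFLI1 libraries, 21.2 and 12.1 FPKM in esiUSP9X libraries and 20.5 and 11.3 FPKM in esiGFP libraries. The replicate differences followed transcript GC content. Across the 55 genes Pearson's r between GC content and the log2 difference was -0.93 in esiFLI1, -0.89 in esiUSP9X and -0.88 in esiGFP, where all kept genes with a GC value gave -0.77, -0.60 and -0.75. These r describe genes of the same libraries, which are not independent replicates.

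**Figure D2:**
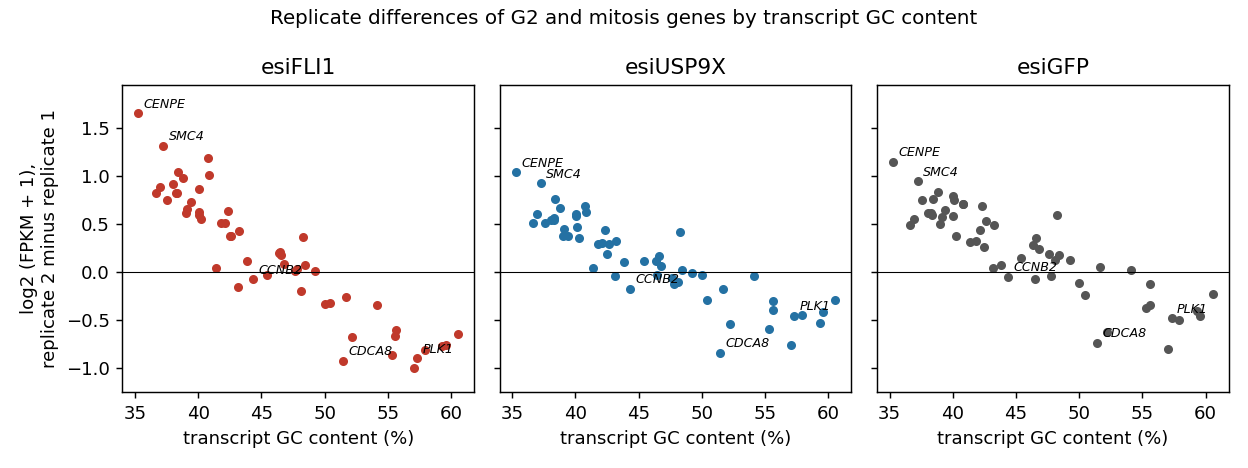
Log2 difference of FPKM + 1 between replicate 2 and replicate 1 of each group (vertical) against GC content of the gene's transcript in percent (horizontal), with a point for each of the 55 genes. In all 3 groups the GC-poor CENPE and SMC4 were higher in replicate 2 and the GC-rich PLK1 and CDCA8 were higher in replicate 1.

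Because deviations of same-numbered libraries moved together, each comparison below was fitted with limma both without and with the replicate number as a block, and a gene was called at a Benjamini-Hochberg adjusted p under 0.05 over all kept genes. Log2 changes are on the log2(FPKM + 1) scale, and the standard errors given are those of the blocked fit.

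After FLI1 knockdown the median change of the G2 and mitosis set was close to that of all genes, and the test passed none of its genes without the replicate block and 14 with it. Without the block 0 of 55 genes were called in limma's test, against 2.81% of all genes (2.58% higher and 0.23% lower), and 3 had an unadjusted p under 0.05, against 15.8% of all genes. With the block 3 genes were higher and 11 lower, which is 5.45% and 20% of the set, and 17 had an unadjusted p under 0.05, against 50.6% of all genes. All genes tested gave 20.6% higher and 21.6% lower (42.1% in either direction), so the share of lower calls was near the background and that of higher calls below it. The median log2 change of the 55 genes was -0.07, against -0.03 over all genes tested, and the range ran from -0.91 for CDC25A to 0.56 for KIF20A. The blocked 95% interval of the change lay within 0.5 of 0 on the log2 scale for 36 of 55 genes (65.5%), against 42.9% of all genes. The half-width of these intervals had a median of 0.241 and a maximum of 0.345 in the set. Over all genes, which include less abundant ones, these were 0.260 and 8.70, so the shares depend on precision as well as on change. Libraries of the groups did not overlap for 9 genes: 2 were higher (KIF20A and CDC25C) and 7 lower (CCNB1, CDC25A, AURKA, ZWINT, KIF2C, NCAPH and MYBL2), where all genes gave 19.8% higher and 17.3% lower. The balance of directions depended on scaling. The blocked split was 2 higher and 15 lower with median-ratio scaling, where 17.6% of all genes were higher and 28.1% lower. It was 6 higher and 5 lower with quantile normalization, where 17.9% of all genes were higher and 20.8% lower.

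**Figure D3:**
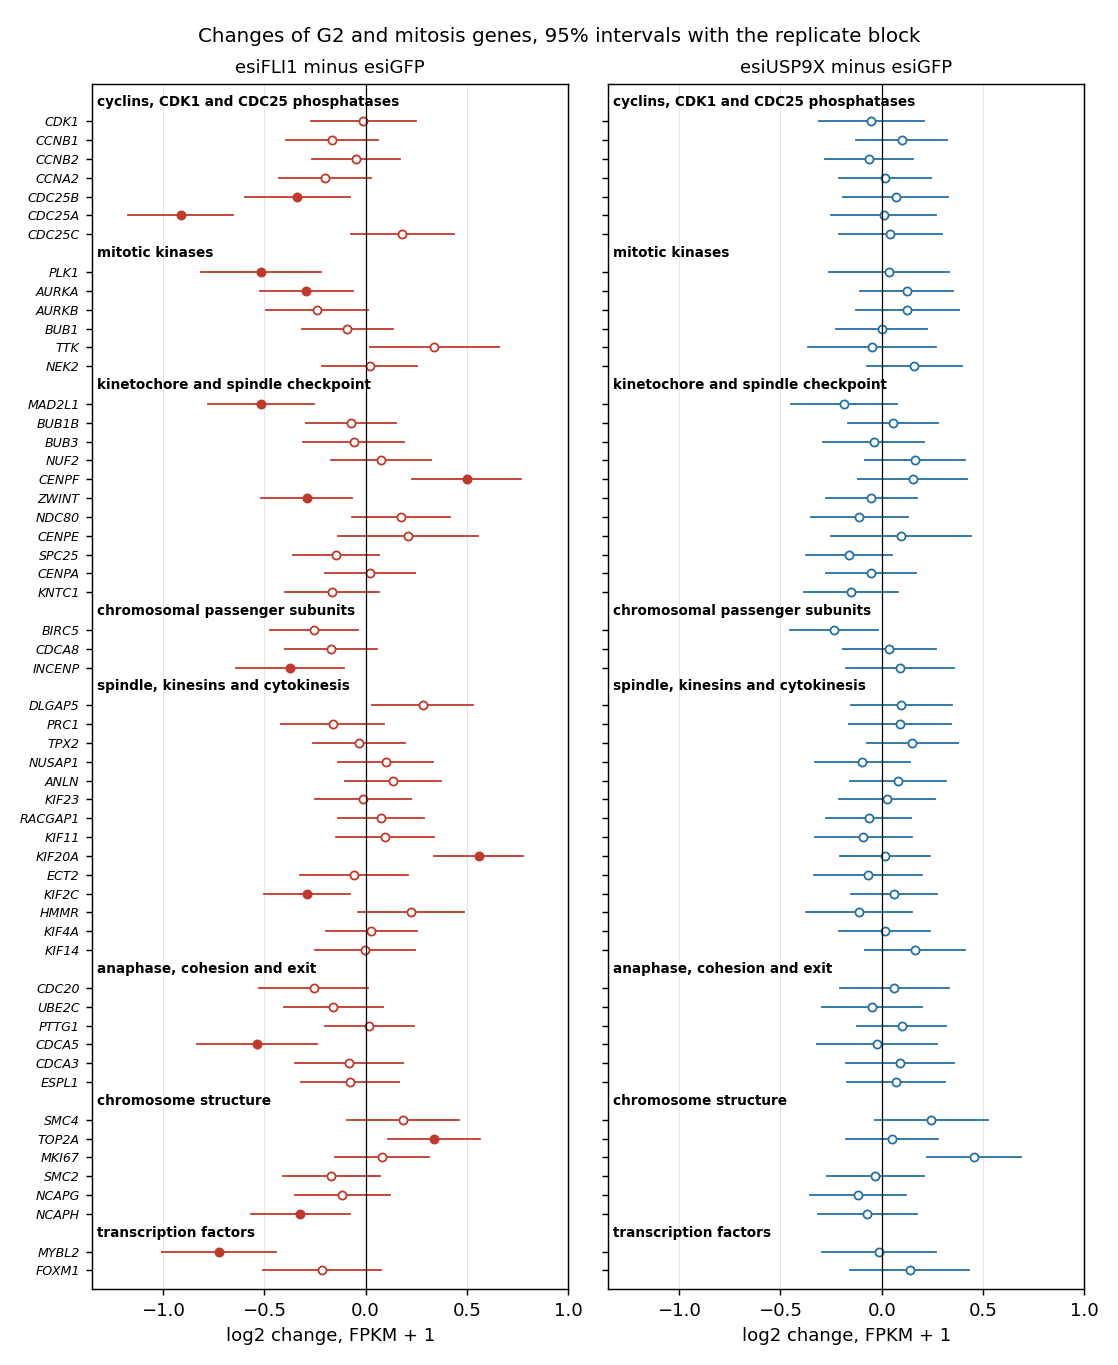
Log2 change of FPKM + 1 (points) with its 95% interval from the blocked fit (lines) for each gene, esiFLI1 minus esiGFP on the left and esiUSP9X minus esiGFP on the right. Filled points passed adjusted p under 0.05 with the block: 14 in the esiFLI1 comparison and 0 in the esiUSP9X comparison.

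The blocked counts of the roles that follow stand against 20.6% of all genes higher and 21.6% lower, and without the block 0 genes of any role were called. Roles of 2 to 14 genes are too small to be set apart from these shares, so their counts are descriptions. Among cyclins, CDK1 and the CDC25 phosphatases, 2 of 7 genes were called with the block, both lower and both phosphatases. CDC25A, which activates cyclin-dependent kinases from late G1 onwards, was 9.58 and 7.82 FPKM in esiFLI1 libraries, 18.4 and 16.2 FPKM in esiUSP9X libraries and 16.8 and 17.6 FPKM in esiGFP libraries. Both esiFLI1 libraries lay below the other 4. The log2 change between esiFLI1 and esiGFP was -0.91 ± 0.11 (SE, n = 2 each), a ratio of 0.531, with limma adjusted p = 0.000697 with the block and 0.0941 without it. CDC25B, which starts CDK1 activation at the centrosomes, was 45.9 and 26.6 FPKM in esiFLI1 libraries, 56.2 and 38.7 FPKM in esiUSP9X libraries and 51.4 and 38.4 FPKM in esiGFP libraries. These groups overlapped, and within each replicate number the esiFLI1 library was lowest. Its log2 change was -0.34 ± 0.11, with limma adjusted p = 0.0434 with the block and 0.765 without it. CDC25C, the third phosphatase, went the other way by value, with 14.2 and 16.6 FPKM in esiFLI1 libraries, 14.0 and 13.7 FPKM in esiUSP9X libraries and 13.8 and 13.1 FPKM in esiGFP libraries, and was not called.

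The cyclin B1 and CDK1 RNAs did not pass the test. CCNB1, the main mitotic cyclin, was 148 and 133 FPKM in esiFLI1 libraries, 171 and 167 FPKM in esiUSP9X libraries and 156 and 160 FPKM in esiGFP libraries, so that the esiFLI1 libraries were the lowest of all 6. Its log2 change in esiFLI1 was -0.17, with a blocked 95% interval from -0.39 to 0.06 and limma adjusted p = 0.205, and under quantile normalization it was 0.01. CDK1 was 151 and 281 FPKM in esiFLI1 libraries, 162 and 247 FPKM in esiUSP9X libraries and 171 and 252 FPKM in esiGFP libraries, with all 3 groups overlapping and high values in replicate 2. Its change was -0.01, with an interval from -0.27 to 0.25 and limma adjusted p = 0.945 with the block, and under quantile normalization it was 0.16. Cyclin B2 and cyclin A2 were likewise not called: CCNB2 was 97.3 and 92.4 FPKM in esiFLI1 libraries against 99.7 and 96.3 FPKM in esiGFP libraries, and CCNA2 was 70.5 and 101 FPKM against 83.1 and 113 FPKM.

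Of the 6 mitotic kinases 2 were called lower in esiFLI1 with the block and none higher. PLK1, the polo-like kinase needed from mitotic entry to cytokinesis, was 93.4 and 49.7 FPKM in esiFLI1 libraries, 118 and 85.8 FPKM in esiUSP9X libraries and 116 and 82.8 FPKM in esiGFP libraries. Within each replicate number esiFLI1 was the lowest library, though esiFLI1 replicate 1 was above replicate 2 of the other groups. The log2 change was -0.52 ± 0.13 (SE, n = 2 each), with limma adjusted p = 0.0144 with the block and 0.635 without it, and 0.0524 with the block after quantile normalization. AURKA, the kinase of centrosome maturation and spindle poles, was 58.0 and 65.7 FPKM in esiFLI1 libraries, 78.2 and 87.8 FPKM in esiUSP9X libraries and 66.9 and 86.2 FPKM in esiGFP libraries. Its esiFLI1 libraries lay below all 4 others, with a log2 change of -0.29 ± 0.10 and limma adjusted p = 0.0451 with the block and 0.613 without it. AURKB, the catalytic subunit of the chromosomal passenger complex, was 76.1 and 47.7 FPKM in esiFLI1 libraries, 89.5 and 68.0 FPKM in esiUSP9X libraries and 80.6 and 63.2 FPKM in esiGFP libraries, and did not pass against esiGFP (limma adjusted p = 0.115 with the block). TTK, the checkpoint kinase MPS1, was 45.8 and 106 FPKM in esiFLI1 libraries against 42.6 and 70.5 FPKM in esiGFP libraries and was not called, with limma adjusted p = 0.0803 with the block.

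The 3 chromosomal passenger subunits that position Aurora B gave 1 call. INCENP, the scaffold of the complex, was 21.5 and 12.3 FPKM in esiFLI1 libraries, 26.6 and 19.7 FPKM in esiUSP9X libraries and 25.3 and 18.1 FPKM in esiGFP libraries, the lowest of its replicate number in esiFLI1. Its log2 change was -0.37 ± 0.11, with limma adjusted p = 0.0333 with the block and 0.721 without it. BIRC5, or survivin, was 71.9 and 44.6 FPKM in esiFLI1 libraries, 69.7 and 47.5 FPKM in esiUSP9X libraries and 84.6 and 54.5 FPKM in esiGFP libraries. For BIRC5 the esiGFP library was the highest of its replicate number, and neither knockdown passed the test. CDCA8, or borealin, was 34.9 and 17.9 FPKM in esiFLI1 libraries, 39.3 and 21.5 FPKM in esiUSP9X libraries and 36.8 and 21.7 FPKM in esiGFP libraries, without a call.

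Of 11 kinetochore and checkpoint genes 8 were not called, 1 was higher (9.09%) and 2 were lower (18.2%) with the block, no more than the shares of all genes. MAD2L1, the checkpoint protein that sequesters CDC20, was 91.4 and 152 FPKM in esiFLI1 libraries, 130 and 169 FPKM in esiUSP9X libraries and 135 and 212 FPKM in esiGFP libraries. The esiFLI1 library was lowest within each replicate number, with a log2 change of -0.52 ± 0.11 (SE, n = 2 each) and limma adjusted p = 0.00869 with the block and 0.612 without it. ZWINT, which links the outer kinetochore to the checkpoint, was 63.3 and 62.1 FPKM in esiFLI1 libraries, 71.1 and 77.3 FPKM in esiUSP9X libraries and 73.0 and 81.0 FPKM in esiGFP libraries, with a change of -0.29 ± 0.10 and limma adjusted p = 0.0433 with the block and 0.508 without it. The ZWINT libraries of esiFLI1 did not overlap with the others. CENPF, a large kinetochore and nuclear matrix protein that accumulates in G2, was 70.7 and 144 FPKM in esiFLI1 libraries, 63.5 and 98.9 FPKM in esiUSP9X libraries and 55.3 and 91.4 FPKM in esiGFP libraries. It was highest in esiFLI1 within each replicate number, with a change of 0.50 ± 0.12 and limma adjusted p = 0.0112 with the block and 0.718 without it. BUB1B, the checkpoint protein BUBR1, was 82.0 and 111 FPKM in esiFLI1 libraries against 84.5 and 119 FPKM in esiGFP libraries and was not called, nor were the other 7 genes of this role.

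In the spindle, kinesin and cytokinesis role 12 of 14 genes were not called, 1 was higher and 1 lower. KIF20A, a kinesin that brings the chromosomal passenger complex to the central spindle, was 88.1 and 92.8 FPKM in esiFLI1 libraries, 61.3 and 62.3 FPKM in esiUSP9X libraries and 57.4 and 65.0 FPKM in esiGFP libraries. Both esiFLI1 libraries lay above the other 4. The log2 change was 0.56 ± 0.09 (SE, n = 2 each), a ratio of 1.47, with limma adjusted p = 0.00296 with the block and 0.186 without it. In GENCODE v29 the exons of KIF20A overlap those of CDC23 on the opposite strand, as those of PLK1 do with ERN2. Opposite-strand partners are also listed for MAD2L1, KIF2C and HMMR, and for genes without a call, such as CCNA2, PRC1 and SMC4. Whether counting used the strand is not given in the sources used here. CDC23 was 23.7 and 25.2 FPKM in esiFLI1 libraries against 25.1 and 29.6 FPKM in esiGFP libraries. KIF2C, the microtubule depolymerase MCAK, was 60.4 and 48.2 FPKM in esiFLI1 libraries, 76.3 and 62.3 FPKM in esiUSP9X libraries and 71.9 and 60.8 FPKM in esiGFP libraries, with a change of -0.29 ± 0.09 and limma adjusted p = 0.0376 with the block and 0.651 without it. The most abundant genes of the role were DLGAP5, a stabiliser of kinetochore fibres, and PRC1, which bundles central spindle microtubules. DLGAP5 was 95.1 and 198 FPKM in esiFLI1 libraries against 86.3 and 147 FPKM in esiGFP libraries, PRC1 was 119 and 104 FPKM against 119 and 130 FPKM, and neither was called.

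Genes of anaphase, cohesion and exit gave 1 call of 6. CDCA5, or sororin, which protects cohesin until anaphase, was 32.2 and 17.3 FPKM in esiFLI1 libraries, 42.3 and 27.7 FPKM in esiUSP9X libraries and 39.7 and 30.4 FPKM in esiGFP libraries. It was lowest in esiFLI1 within each replicate number, with a log2 change of -0.54 ± 0.13 (SE, n = 2 each) and limma adjusted p = 0.0120 with the block and 0.621 without it. CDC20, the APC/C activator, was 149 and 84.6 FPKM in esiFLI1 libraries, 164 and 120 FPKM in esiUSP9X libraries and 160 and 113 FPKM in esiGFP libraries, with limma adjusted p = 0.111 with the block. UBE2C, the ubiquitin-conjugating enzyme that starts chains for the APC/C, was 137 and 109 FPKM in esiFLI1 libraries against 142 and 131 FPKM in esiGFP libraries, without a call. PTTG1, or securin, stayed between 97.5 and 110 FPKM in all 6 libraries, and its near-identical copies PTTG2 and PTTG3P were listed at 0 throughout.

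Chromosome structure genes gave 1 call in each direction among 6. TOP2A, the topoisomerase that untangles sister chromatids, was 80.3 and 128 FPKM in esiFLI1 libraries, 70.5 and 96.9 FPKM in esiUSP9X libraries and 65.3 and 97.5 FPKM in esiGFP libraries, highest in esiFLI1 within each replicate number. Its log2 change was 0.34 ± 0.10 (SE, n = 2 each), with limma adjusted p = 0.0263 with the block and 0.750 without it. NCAPH, a condensin I subunit, was 14.6 and 14.8 FPKM in esiFLI1 libraries, 18.1 and 17.3 FPKM in esiUSP9X libraries and 17.4 and 20.0 FPKM in esiGFP libraries, below all other libraries in esiFLI1, with a change of -0.32 ± 0.11 and limma adjusted p = 0.0406 with the block and 0.493 without it. SMC4, the condensin ATPase, was 92.4 and 232 FPKM in esiFLI1 libraries, 110 and 211 FPKM in esiUSP9X libraries and 92.4 and 179 FPKM in esiGFP libraries, with replicate differences larger than any between groups. MKI67, the Ki-67 protein that coats mitotic chromosomes and serves as a marker of cycling cells, was 53.9 and 69.9 FPKM in esiFLI1 libraries, 69.2 and 92.5 FPKM in esiUSP9X libraries and 47.1 and 71.5 FPKM in esiGFP libraries. Against esiGFP the esiFLI1 libraries gave a change of 0.08, with limma adjusted p = 0.547 with the block.

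Of the transcription factors that activate this set, MYBL2 was lower and FOXM1 was not called. MYBL2, or B-MYB, which joins MuvB to form the activating complex, was 114 and 72.3 FPKM in esiFLI1 libraries, 165 and 135 FPKM in esiUSP9X libraries and 163 and 139 FPKM in esiGFP libraries. Both esiFLI1 libraries lay below the other 4, with a log2 change of -0.72 ± 0.12 (SE, n = 2 each), a ratio of 0.605, and limma adjusted p = 0.00282 with the block and 0.297 without it. FOXM1, which acts after B-MYB, was 62.7 and 41.1 FPKM in esiFLI1 libraries, 72.5 and 58.6 FPKM in esiUSP9X libraries and 61.7 and 56.7 FPKM in esiGFP libraries, with a change of -0.22 and limma adjusted p = 0.200 with the block.

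**Figure D4:**
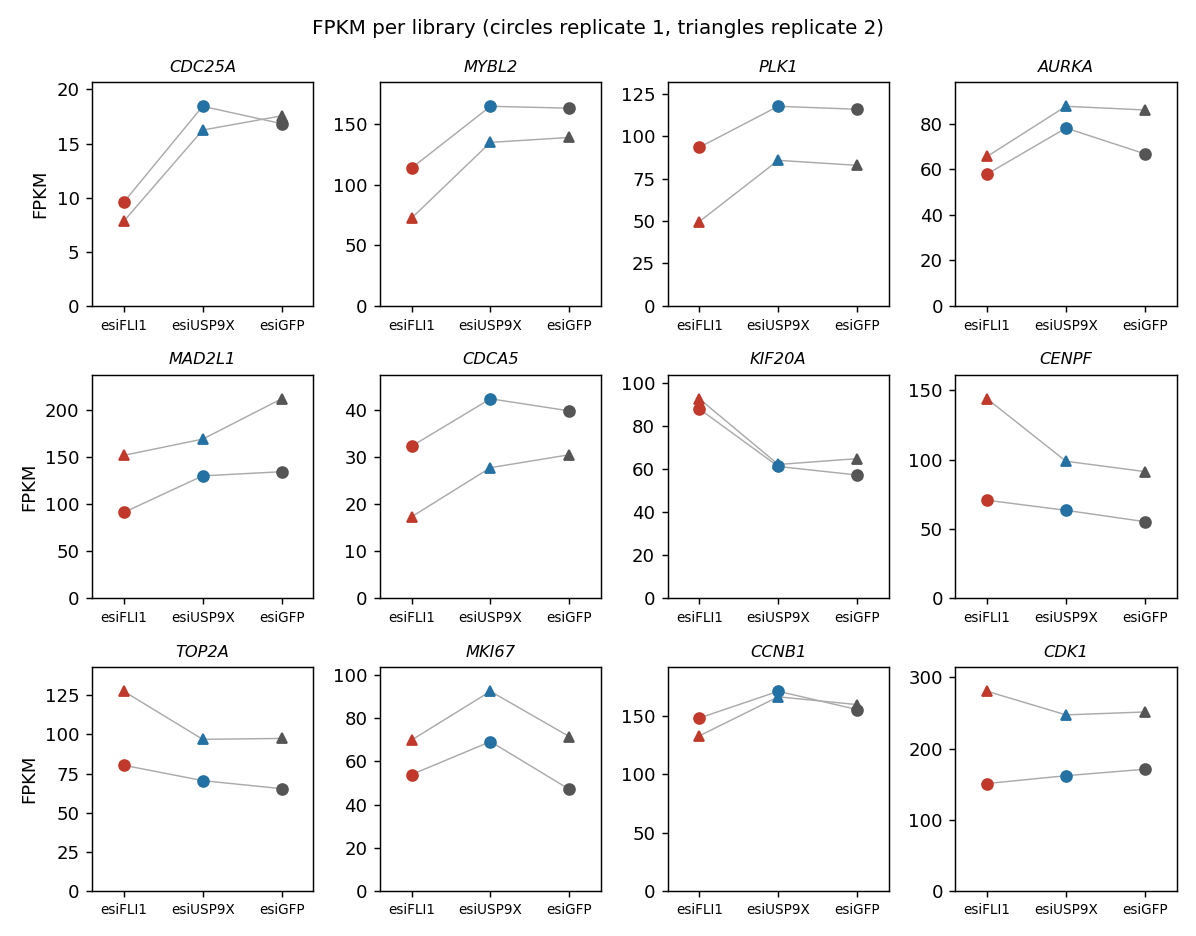
FPKM of 12 genes in esiFLI1, esiUSP9X and esiGFP (horizontal), each vertical axis starting at 0, with lines joining libraries of the same replicate number. CDC25A and MYBL2 were lower and KIF20A higher in both esiFLI1 libraries than in the other 4, whereas CDK1 separated by replicate number.

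The 14 calls of the blocked fit were not equally firm. With a library left out, fewer of all genes were called in this comparison, so calls lost in that way are not particular to these genes. CDC25A, MYBL2 and KIF20A were called in all 9 further blocked settings, which left out each library in turn, rescaled the libraries or corrected for GC content, and all 14 genes kept their sign in all 9. Leaving out esiFLI1 replicate 2 ended the calls of PLK1, CENPF, CDCA5, INCENP, CDC25B and TOP2A, leaving out esiGFP replicate 2 ended all of these but CENPF, and leaving out esiFLI1 replicate 1 ended that of MAD2L1. AURKA, ZWINT and KIF2C lost their calls whichever library was left out, and NCAPH in all but 1 of these settings. CDC25B was also lost without either esiUSP9X library, and TOP2A without esiGFP replicate 1. Quantile normalization ended the calls of CDC25B, PLK1, AURKA, ZWINT, INCENP and KIF2C, and median-ratio scaling that of TOP2A. Transcript GC content differed between the calls. The median was 51.7% for the 11 lower genes, 40.8% for the 3 higher genes and 42.5% for the 41 uncalled ones, and r between GC content and the log2 change was -0.56 over the 55 genes, against -0.11 over all genes. After a GC correction chosen after seeing the data, all 14 genes were called with the block, in a split of 4 higher (7.27%) and 19 lower (34.5%) over the set, where 24.9% of all genes were higher and 29.2% lower. With the same correction and no block KIF20A was called higher and CDC25A, MAD2L1 and MYBL2 lower, which is 1.82% and 5.45% of the set, where 11.4% of all genes were higher and 8% lower.

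USP9X knockdown gave no call in the set. With limma 0 of 55 genes were called without the block, against 0.0247% of all genes, and 0 with it, against 0.238%. At an unadjusted p under 0.05 there were 0 genes without the block, against 0.937% of all genes, and 2 with it, against 10.9%. The median log2 change was 0.03, against -0.01 over all genes, and the range ran from -0.24 for BIRC5 to 0.46 for MKI67. The blocked 95% interval lay within 0.5 of 0 for 53 of 55 genes (96.4%), against 80.7% of all genes. Interval half-widths were those given for the esiFLI1 comparison, so this share too depends on precision as well as on change. Groups did not overlap for 3 genes, all higher in esiUSP9X (CCNB1, PTTG1 and CDCA3), where all genes gave 8.75% higher and 7.82% lower. MKI67 was higher in esiUSP9X than in esiGFP within both replicate numbers, by 0.46 ± 0.10 on the log2 scale (SE, n = 2 each), with a 95% interval from 0.22 to 0.69, an unadjusted p of 0.00202 with the block in limma and an adjusted p of 0.191. CCNB1 had a change of 0.10 with an interval from -0.13 to 0.32. CDC25A, MYBL2, PLK1 and KIF20A, whose values are given above, had esiUSP9X libraries near those of esiGFP.

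Set against each other, the knockdowns differed with the block in 15 genes, among them CDC25A and MYBL2, which were higher in esiUSP9X, and KIF20A, which was lower. This comparison shares the esiFLI1 libraries with the one against esiGFP, so it is not separate evidence. Without the block 0 of 55 genes were called in limma, against 3.08% of all genes, and 3 had an unadjusted p under 0.05, against 15.9%. With the block 11 were higher and 4 lower in esiUSP9X, against 20.2% and 20.9% of all genes (41.1% in either direction), and 22 had an unadjusted p under 0.05, against 50.7%. The higher genes, by log2 difference between esiUSP9X and esiFLI1, were CDC25A at 0.92, MYBL2 at 0.71, PLK1 at 0.55, CDCA5 at 0.52, INCENP at 0.47, AURKA at 0.42, CDC25B at 0.41, MKI67 at 0.38, AURKB at 0.37, KIF2C at 0.35 and MAD2L1 at 0.33. The lower genes were KIF20A at -0.54, CENPF at -0.35, HMMR at -0.33 and TOP2A at -0.29. HMMR, a spindle protein also known as a hyaluronan receptor, was 25.7 and 37.2 FPKM in esiUSP9X libraries against 29.3 and 52.4 FPKM in esiFLI1 libraries. Libraries did not overlap for 10 genes higher and 3 lower in esiUSP9X, where all genes gave 18.4% and 21.1%. With the block, CDC25A, MYBL2 and KIF20A were the genes called in all 9 further settings, and the split was 18 higher and 1 lower with median-ratio scaling, where 26.1% of all genes were higher and 18.6% lower. With quantile normalization it was 8 higher and 7 lower, where 21.9% of all genes were higher and 18.1% lower.

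Other genes of the cell cycle, from lists chosen with earlier results of these data known, are given by the same counts. Without the block, 0 genes of these lists were called in limma in the esiFLI1 comparison, and 4 of 67 other G2 and mitosis genes, 0 of 15 APC/C genes, 3 of 22 MuvB, DREAM and E2F regulators and 11 of 37 DNA replication and S phase genes had an unadjusted p under 0.05, against 15.8% of all genes. These are 5.97%, 0%, 13.6% and 29.7% of the lists. With the block, 6 of the 67 other G2 and mitosis genes were higher (8.96%) and 15 lower (22.4%), against 20.6% and 21.6% of all genes, with a median log2 change of -0.13. The higher ones with the smallest p were the spindle protein CKAP2L at 0.60, the cytokinesis kinase CIT at 0.53 and the spindle pole protein ASPM at 0.49. The lower ones were PKMYT1, which inhibits CDK1, at -0.83, the kinetochore subunit CENPH at -0.71 and the histone variant H2AFZ at -0.59. PKMYT1 was 19.1 and 6.23 FPKM in esiFLI1 libraries against 35.5 and 11.7 FPKM in esiGFP libraries, with overlap. The libraries of CKAP2L and ASPM also overlapped between these groups, whereas those of CIT did not. CENPH was 38.4 and 57.8 FPKM in esiFLI1 libraries, 68.4 and 78.9 FPKM in esiUSP9X libraries and 71.5 and 85.0 FPKM in esiGFP libraries, without overlap between esiFLI1 and the rest.

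Of the APC/C genes 0 were higher and 3 lower (20%) with the block, near the 21.6% of all genes, with a median of -0.16. The largest of these changes was that of UBE2S, which extends the ubiquitin chains begun by UBE2C, at -0.69, with 149 and 78.5 FPKM in esiFLI1 libraries against 228 and 135 FPKM in esiGFP libraries, and the core subunits ANAPC1 and ANAPC7 followed at -0.32 and -0.31. Of the regulators that set the timing of this transcription 2 were higher (9.09%) and 6 lower (27.3%), against 20.6% and 21.6% of all genes, with a median of -0.11. RBL2, the p130 subunit of the repressive DREAM complex, was higher at 0.76, with 19.7 and 24.8 FPKM in esiFLI1 libraries against 11.8 and 13.6 FPKM in esiGFP libraries, and TFDP2, a dimerisation partner of E2F proteins, was higher at 0.75. E2F2 was lower at -0.83, E2F1 at -0.82 and E2F5 at -0.50. E2F2 was 7.22 and 4.42 FPKM in esiFLI1 libraries, 10.7 and 8.08 FPKM in esiUSP9X libraries and 12.6 and 9.38 FPKM in esiGFP libraries.

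DNA replication and S phase genes had the lowest median of these lists, -0.44, with 29 of 37 lower (78.4%) and 1 higher with the block, where 21.6% of all genes were lower. The licensing factor CDT1 was lower at -0.96, the replicative helicase subunits GINS1 and MCM2 at -0.63 and -0.58, and CCNE2, a cyclin of the G1 to S transition, was higher at 0.59. GINS1 was 22.6 and 27.7 FPKM in esiFLI1 libraries, 37.1 and 37.8 FPKM in esiUSP9X libraries and 36.4 and 42.5 FPKM in esiGFP libraries, with both esiFLI1 libraries below the rest. The difference between the S phase list and the G2 and mitosis genes was not tested. Counts of the S phase list and of the other added lists were not repeated with other scalings, GC correction or libraries left out. In the esiUSP9X comparison 0 genes of all these lists were called with or without the block in limma. With the block 11 of the 37 S phase genes (29.7%) had an unadjusted p under 0.05 there, against 10.9% of all genes, and the S phase median was -0.14.

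**Figure D5:**
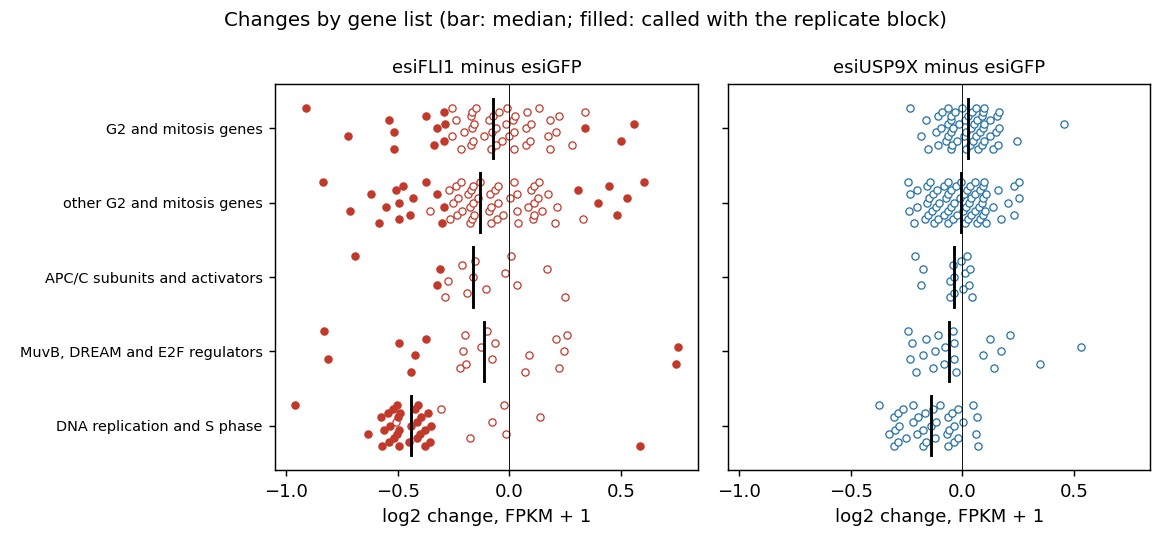
Log2 change of FPKM + 1 of each gene (points) by gene list (rows), esiFLI1 minus esiGFP on the left and esiUSP9X minus esiGFP on the right, with filled points for adjusted p under 0.05 with the block and a bar at the list median. In esiFLI1 the medians are -0.07 for the G2 and mitosis genes and -0.44 for the replication and S phase genes.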

How the data were processed

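RNA from 6 A673 libraries was depleted of ribosomal RNA from 2 µg of total RNA and sequenced as 75-nt single-end reads from stranded libraries, per the labels' protocols. The authors deposited FPKM values per gene symbol. The submitters' processing notes name TopHat, Cufflinks, Cuffdiff, hg19 and GRCh37, without versions. The sources used here give neither the annotation nor a strand setting for counting, which leaves overlapping genes uncertain. The table had 0 columns without a sample, and 1 stray closing line was removed. Depth is unknown, and no counts were inferred.

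Genes reaching 1 FPKM in 2 or more libraries entered a fit of log2(FPKM + 1) by limma 3.58.1 (R 4.3.3; lmFit and trended eBayes) over the 6 libraries with 3 group means. Two-sided p-values were adjusted by Benjamini-Hochberg over 12169 genes. This scale understates changes of low genes. The fit had 3 residual and 2.21 prior degrees of freedom, and the fit with the replicate number as a block had 2 and 5.72. The labels state no shared day. Deviations from group means correlated at 0.647 between esiFLI1 and esiGFP, 0.589 between esiUSP9X and esiGFP and 0.644 between esiFLI1 and esiUSP9X over all kept genes, each over 0.1. The data, not the design, therefore gave the pairing by number, and blocked values stand beside each result they change.

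The 55 genes, their roles and the other lists were chosen with earlier results of these data known. Genes named are those called in a comparison, the 2 most abundant of each role, CDK1, CCNB1, PLK1, AURKA, TOP2A, MKI67, FOXM1 and MYBL2, the targets, and up to 3 called genes per direction of each other list. Others, such as CENPE, ESPL1, TTK, CDC25C, CCNB2, CCNA2, PTTG1 and genes named for not overlapping, were chosen after their values were seen. Transcript GC content came from GENCODE v29 (found for 22597 of 25268 symbols, 89.4%, and all 55 genes) and was used without coordinates. Alternatives were another pseudocount, other filters, scalings and GC correction, and leaving out each library, with and without the block.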

Additional observations from a re-analysis of the deposited data

How the results depend on the processing

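With the replicate number as a block, the counts of called genes moved to 3 higher and 11 lower in esiFLI1 against esiGFP and to 11 higher and 4 lower in esiUSP9X against esiFLI1, and it changed no call between esiUSP9X and esiGFP. A pseudocount of 0.1 FPKM, no filter on low values, a filter of 5 FPKM, and median-ratio scaling or quantile normalization without the block gave 0 calls, as did leaving out any library without the block. With the block, median-ratio scaling gave 2 higher and 15 lower, and quantile normalization 6 and 5, in esiFLI1 against esiGFP. In esiUSP9X against esiFLI1 these counts were 18 and 1, and 8 and 7. GC correction, chosen after seeing the data, gave 1 higher and 3 lower without the block and 4 and 19 with it in esiFLI1 against esiGFP. All genes gave 11.4% higher and 8% lower without the block there, and 24.9% and 29.2% with it. In esiUSP9X against esiFLI1 it gave 4 higher and 1 lower without the block, where 7.94% of all genes were higher and 11.6% lower. With the block it gave 21 higher and 6 lower, where 27.7% of all genes were higher and 25.7% lower. The median change in esiFLI1 against esiGFP was -0.15 with median-ratio scaling, 0.036 with quantile normalization and -0.11 with GC correction, with or without the block. Under quantile normalization CCNB1 was 0.014 and CDK1 0.16, with or without the block. The cause of these shifts was not tested.

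Leaving out 1 library at a time with the block gave 1 to 7 higher and 3 to 8 lower calls in esiFLI1 against esiGFP, with the fewest in both directions without esiFLI1 replicate 2, and 2 to 13 higher and 1 to 5 lower in esiUSP9X against esiFLI1, with the fewest without esiFLI1 replicate 2 or esiUSP9X replicate 2 (2 and 1 each) and 4 and 1 without esiUSP9X replicate 1. With the block, fewer of all genes were also called in esiFLI1 against esiGFP, whichever library was left out. In esiUSP9X against esiFLI1 the same held without an esiFLI1 or esiUSP9X library, whereas more of all genes were called without an esiGFP library. Losses of calls in these settings were therefore not confined to this set. A group left with 1 library was assumed to vary like the others. The median change then ranged from -0.20 to 0.099 in esiFLI1 against esiGFP (-0.12 to -0.035 with the block), from -0.13 to 0.13 in esiUSP9X against esiGFP and from -0.089 to 0.20 in esiUSP9X against esiFLI1. The sign turned without the block for some genes. In esiFLI1 against esiGFP the ranges were -0.46 to 0.43 for CDK1, -0.72 to 0.045 for CDC25B, -0.0077 to 1.01 for CENPF, -0.75 to 0.0054 for INCENP, -0.22 to 0.38 for MKI67 and -0.52 to 0.083 for FOXM1. In esiUSP9X against esiFLI1 they were -0.034 to 0.69 for MAD2L1, -0.85 to 0.16 for CENPF, -0.74 to 0.078 for HMMR and -0.62 to 0.041 for TOP2A. With the block the sign turned in esiFLI1 against esiGFP for CDK1 (0.14 without esiFLI1 replicate 1 and 0.087 without esiGFP replicate 1) and for MKI67 (-0.021 without esiGFP replicate 1). Depth is unknown, so its limit on low values cannot be given.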
